A study of Mus musculus with 6 samples.

Results

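Cell cycle and p53 response genes were examined in livers of mice on a high fat diet (HFD) and on a regular diet (RD). The set lists 47 genes, chosen by name. Each was measured by the probe set whose annotation gives that gene as its only symbol, taking the brightest where there were several. This found 45 of the 47 genes, among 19938 genes in all. They comprise 14 of 14 regulators of G1, 13 of 13 genes of DNA synthesis in S phase, 15 of 16 genes of G2 and mitosis (G2/M) and 3 of 4 targets of p53. Ccnb1 had no probe set under this rule. Cdkn1a, the p53 target that encodes the inhibitor p21, was listed only on probe set 10443463, which carries a second symbol. The signal of that probe set is therefore not assigned to it and is given apart, at the end.

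Total RNA came from frozen liver tissue of C57BL/6 mice, an inbred strain, and was measured on 6 arrays. Mice of the HFD group had free access to HFD for 2 days and those of the RD group to RD for 2 days, with 3 arrays a group. The series design states 3 biological replicates for each diet, but the labels do not say whether each array is a separate mouse. The p-values therefore measure only the spread between arrays, and whether that is a spread between mice is not stated. Every sample title also holds NI, which stays unexplained there, and diet composition was not used. Values are log2 signals as deposited, with array medians between 7.06 and 7.11, and precision is limited by having only 3 arrays a group. All 9 hepatocyte markers measured were among the brightest genes of the RD arrays, at percentiles of 95.3 to 100. None of them differed between the diets in limma, with 0 at an unadjusted p under 0.05.

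Cells enter the cycle when mitogens raise D-type cyclins, which with Cdk4 and Cdk6 release E2F factors from the retinoblastoma protein. E2F factors switch on genes of DNA synthesis, and a later wave of genes, controlled through CHR and CCAAT promoter elements, drives G2 and mitosis. The factor p53 opposes this programme by inducing p21, and it also induces Mdm2, the ligase that degrades p53. Adult hepatocytes rarely divide, and many are polyploid.

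Promoter sequences are shown to describe the G2/M genes and the replication genes, whose promoters differed in sequence. Any link between promoter sequence and the array values was not tested. RefSeq promoters (GRCm38.p6, 250 bases before to 50 bases after the transcript start, 300 in all) were matched by symbol for 35 of the 45 genes, giving 40 promoters, since 4 genes (Lig1, Cdkn2c, Ccnd3 and Mcm7) had several. The others were Ccnd1, Ccnd2, Ccne2, Cdkn1c, Myc, Mcm4, Aurkb, Ccna2, Foxm1 and Kif20a. Capitals mark the CHR motif (TTTGAA) and the E2F motif (TTTCGCGC, TTTGGCGC, TTTCCCGC or TTTGCCGC), each searched on both strands, and overlapping matches run together.
Ccnb2 (chr9:70421505-70421804, minus strand): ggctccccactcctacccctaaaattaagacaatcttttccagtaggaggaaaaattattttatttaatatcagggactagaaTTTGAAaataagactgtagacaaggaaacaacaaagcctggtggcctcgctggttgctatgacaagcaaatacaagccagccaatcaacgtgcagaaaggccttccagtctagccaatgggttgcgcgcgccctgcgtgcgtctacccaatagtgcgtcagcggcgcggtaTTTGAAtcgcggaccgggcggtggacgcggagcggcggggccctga
Cdc20 (chr4:118437294-118437593, minus strand): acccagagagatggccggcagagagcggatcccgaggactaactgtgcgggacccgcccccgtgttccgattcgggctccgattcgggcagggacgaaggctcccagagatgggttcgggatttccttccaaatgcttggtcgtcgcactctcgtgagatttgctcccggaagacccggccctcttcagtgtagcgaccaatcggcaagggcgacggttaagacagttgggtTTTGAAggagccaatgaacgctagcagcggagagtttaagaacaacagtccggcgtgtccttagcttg
Cdk1 (chr10:69352863-69353162, minus strand): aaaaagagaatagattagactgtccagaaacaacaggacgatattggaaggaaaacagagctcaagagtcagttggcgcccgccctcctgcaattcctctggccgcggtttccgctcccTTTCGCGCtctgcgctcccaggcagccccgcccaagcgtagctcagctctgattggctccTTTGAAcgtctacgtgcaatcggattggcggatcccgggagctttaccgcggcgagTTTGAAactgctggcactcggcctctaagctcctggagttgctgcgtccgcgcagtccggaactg
Mcm3 (chr1:20820263-20820562, minus strand): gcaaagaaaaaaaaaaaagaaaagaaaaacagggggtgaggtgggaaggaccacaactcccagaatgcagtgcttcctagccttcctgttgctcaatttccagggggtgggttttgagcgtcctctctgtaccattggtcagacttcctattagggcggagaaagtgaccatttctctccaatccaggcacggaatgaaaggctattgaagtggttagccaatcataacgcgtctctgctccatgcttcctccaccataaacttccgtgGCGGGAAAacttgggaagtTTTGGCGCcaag
Mcm6 (chr1:128359656-128359955, minus strand): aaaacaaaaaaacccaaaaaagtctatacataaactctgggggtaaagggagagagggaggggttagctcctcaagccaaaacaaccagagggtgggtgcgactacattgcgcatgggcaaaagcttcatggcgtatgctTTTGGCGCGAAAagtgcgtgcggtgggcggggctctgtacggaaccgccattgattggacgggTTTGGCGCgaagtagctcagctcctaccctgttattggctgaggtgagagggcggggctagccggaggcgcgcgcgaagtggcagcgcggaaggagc
E2f8 (chr7:48881547-48881846, minus strand): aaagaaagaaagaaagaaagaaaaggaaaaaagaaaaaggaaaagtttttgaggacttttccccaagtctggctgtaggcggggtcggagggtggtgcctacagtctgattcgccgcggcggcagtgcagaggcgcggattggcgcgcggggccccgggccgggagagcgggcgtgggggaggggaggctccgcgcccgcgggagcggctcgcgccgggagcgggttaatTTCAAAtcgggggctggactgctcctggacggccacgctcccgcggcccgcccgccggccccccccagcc
Ccnb2, Cdc20 and Cdk1 stand for the G2/M genes, Mcm3 and Mcm6 for the replication genes, and E2f8 had the largest difference between the diets. The CHR motif was present in 9 of 11 G2/M promoters (81.8%), against 17.9% of all 32851 promoters of this length. It was in 1 of 15 S phase promoters (6.67%). The E2F motif was present in 6 of 15 S phase promoters of 12 genes (40%) and in 4 of 6 promoters of 5 Mcm genes (66.7%), against 2.26% of all promoters. In G2/M promoters 1 of 11 held it, that of Cdk1. The CCAAT box (CCAAT, both strands) was in 10 of 11 G2/M promoters (90.9%), 9 of 15 S phase promoters (60%) and 37.4% of all promoters. It was also in 6 of 6 promoters of the Mcm genes and 3 of 3 of the p53 targets. None of the 3 promoters of p53 targets held the CHR or E2F motif. Such matches describe letters in a window and are not measured binding sites.

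**Figure D1:**
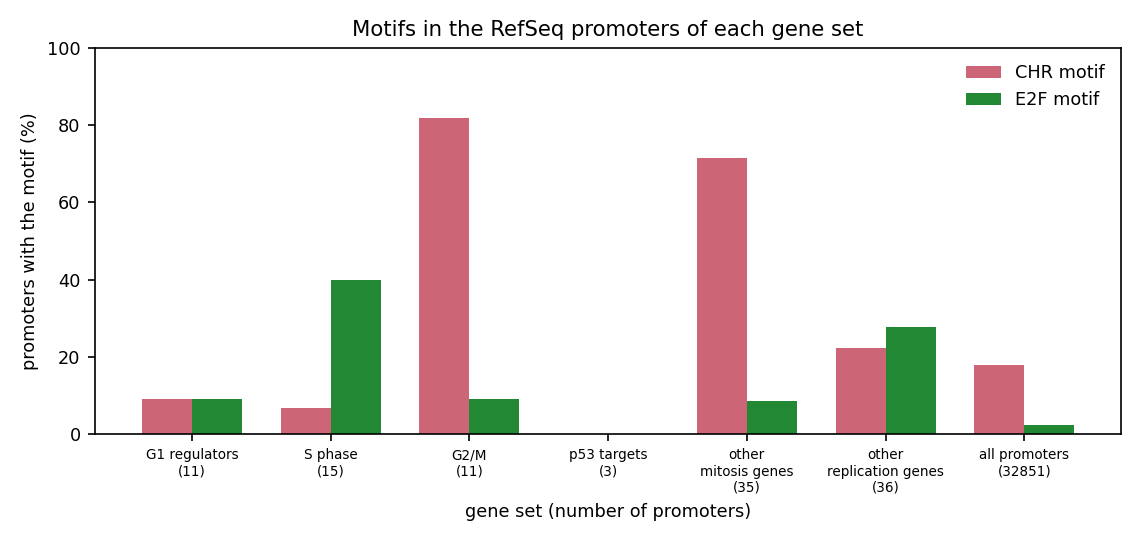
Share of promoters with the CHR or E2F motif in each gene set, in percent, with the number of promoters in brackets. The CHR motif is most frequent in G2/M genes (81.8%) and other mitosis genes (71.4%), and the E2F motif in S phase genes (40%), against 17.9% and 2.26% of all promoters.

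Between the diets few of these genes changed. Ccnd1 and Mdm2 were higher and E2f8 was lower in HFD livers (limma, Benjamini-Hochberg adjusted p under 0.05 over all genes), which is 3 of 45 genes or 6.67%. Over all genes 5.35% passed, 3.11% higher and 2.24% lower, so the share among the cell cycle genes was near the background. In limma over every row of the data, with a single gene symbol or not, E2f8 passed (adjusted p = 0.049). Mdm2 (0.080) and Ccnd1 (0.125) did not pass in that fit. The median log2 difference, HFD minus RD, was 0.07 over the 45 genes and 0.00 over all genes (-0.0029). The median of the 45 genes rested on single arrays, at 0.08, 0.18 and -0.02 without HFD replicates 1 to 3 and 0.0030, -0.03 and 0.31 without RD replicates 1 to 3. HFD and RD values did not overlap for 10 of the 45 genes (22.2%), against 25.7% of all genes. HFD lay above RD for 7 of them (14% of all genes) and below for 3 (11.7% of all genes). In these bulk samples, fewer cells of a type and less RNA per cell cannot be told apart.

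**Figure D2:**
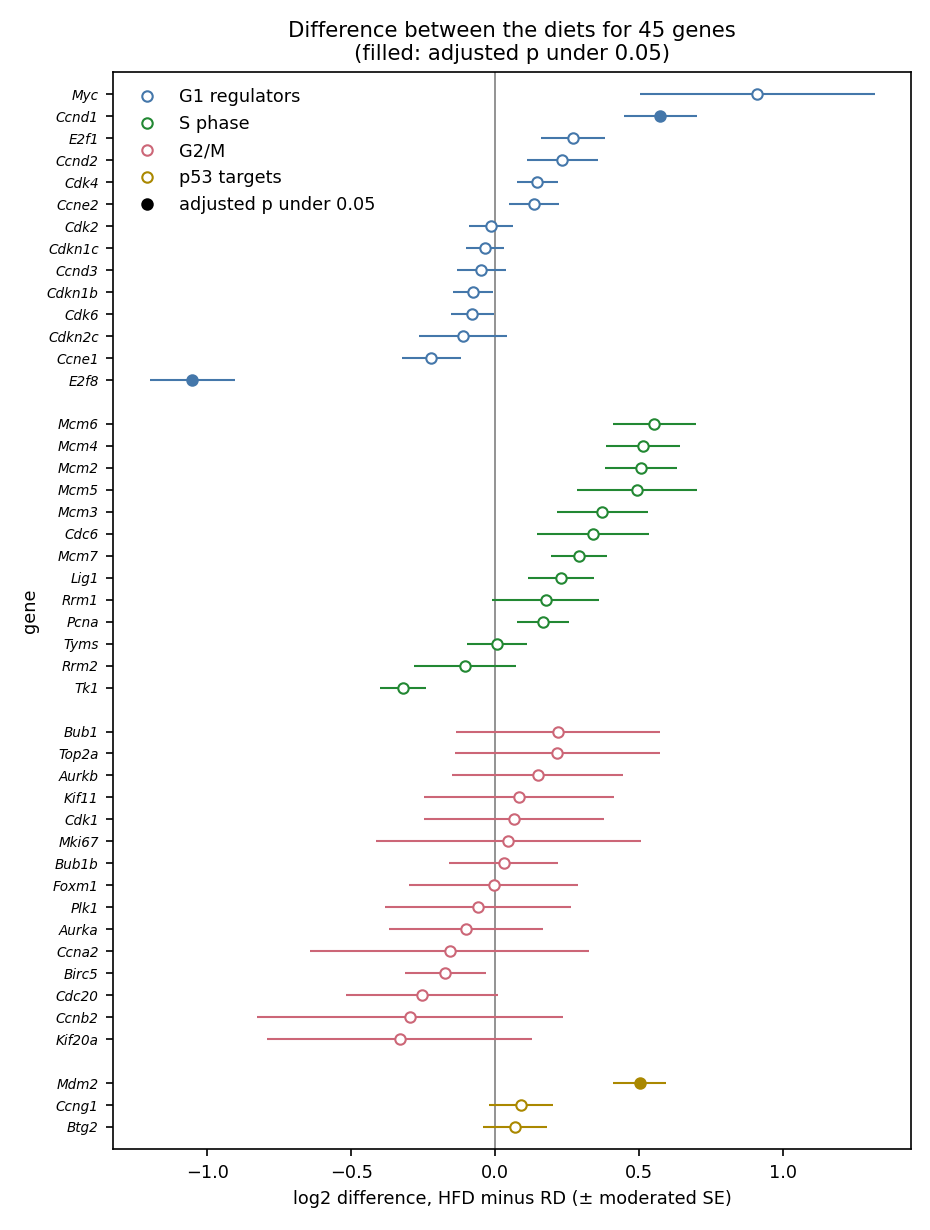
Log2 difference, HFD minus RD, of the 45 genes by group with the moderated standard error, and filled points for an adjusted p under 0.05. E2f8, Ccnd1 and Mdm2 passed, the 6 Mcm genes lay between 0.29 and 0.55, and the G2/M genes had the widest errors.

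Among the G1 regulators, the largest difference was that of E2f8 (probe set 10563780), an atypical E2F factor that represses E2F target genes and takes part in making hepatocytes polyploid. Its log2 signal was 8.29, 8.35 and 8.57 in HFD livers, against 9.70, 9.11 and 9.56 in RD livers. All HFD values lay below all RD values. The log2 difference was -1.05 ± 0.15 (SE; adjusted p = 0.0073), or 2.07-fold lower in HFD. E2f8 passed whichever array was left out, with differences from -1.23 to -0.93. In a linear model without moderated variances, E2f8 (adjusted p = 0.127), Mdm2 (0.137) and Ccnd1 (0.214) did not pass, nor with replicates 1 and 2 of each diet alone (0.056, 0.068 and 0.205).

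Ccnd1 (probe set 10569646) encodes cyclin D1, which activates Cdk4 and Cdk6 in response to growth signals. Log2 signals were 11.32, 11.02 and 11.35 in HFD livers, against 10.90, 10.55 and 10.51 in RD livers, with no overlap. The difference was 0.57 ± 0.13 (SE; adjusted p = 0.039), or 1.49-fold. The call was lost without HFD replicate 1 (adjusted p = 0.116), HFD replicate 3 (0.110), RD replicate 2 (0.134) or RD replicate 3 (0.110), with differences of 0.50 to 0.53.

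Apart from E2f8 and Myc, the other G1 regulators showed smaller differences than Ccnd1, and none passed. Ccnd2, another D-type cyclin, differed by 0.23 ± 0.12 (SE) and Ccnd3 by -0.05 ± 0.08. Cdk4 differed by 0.15 ± 0.07 (adjusted p = 0.313) with all HFD values above all RD values, and Cdk6 by -0.08 ± 0.07. E2f1, an activating E2F factor, had log2 signals of 8.55, 8.41 and 8.76 in HFD livers, against 8.24, 8.18 and 8.49 in RD livers. Its difference was 0.27 ± 0.11 (adjusted p = 0.230), and the diets overlapped. The cyclins that activate Cdk2 went apart. Ccne1 differed by -0.22 ± 0.10 (adjusted p = 0.283) with all HFD values below all RD values. Ccne2 differed by 0.13 ± 0.09 and Cdk2 itself by -0.01 ± 0.08, both with overlap. Differences of the Cdk inhibitors Cdkn1b, Cdkn1c and Cdkn2c lay between -0.11 and -0.04, and none passed.

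Myc, a growth-promoting transcription factor, had the widest spread of the G1 group. Its log2 signal was 10.25, 9.74 and 9.56 in HFD livers, against 9.76, 9.14 and 7.91 in RD livers. RD replicate 3 stood lowest, 1.85 below the highest RD array. The difference was 0.91 ± 0.41 (SE; adjusted p = 0.265), with a 95% interval from -0.02 to 1.84, and without RD replicate 3 it was 0.40. Of the 14 G1 regulators 1 rose, 1 fell and 12 did not pass (14.3% called, against 5.35% of all genes). The median difference was -0.02 (all genes -0.0029).

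**Figure D3:**
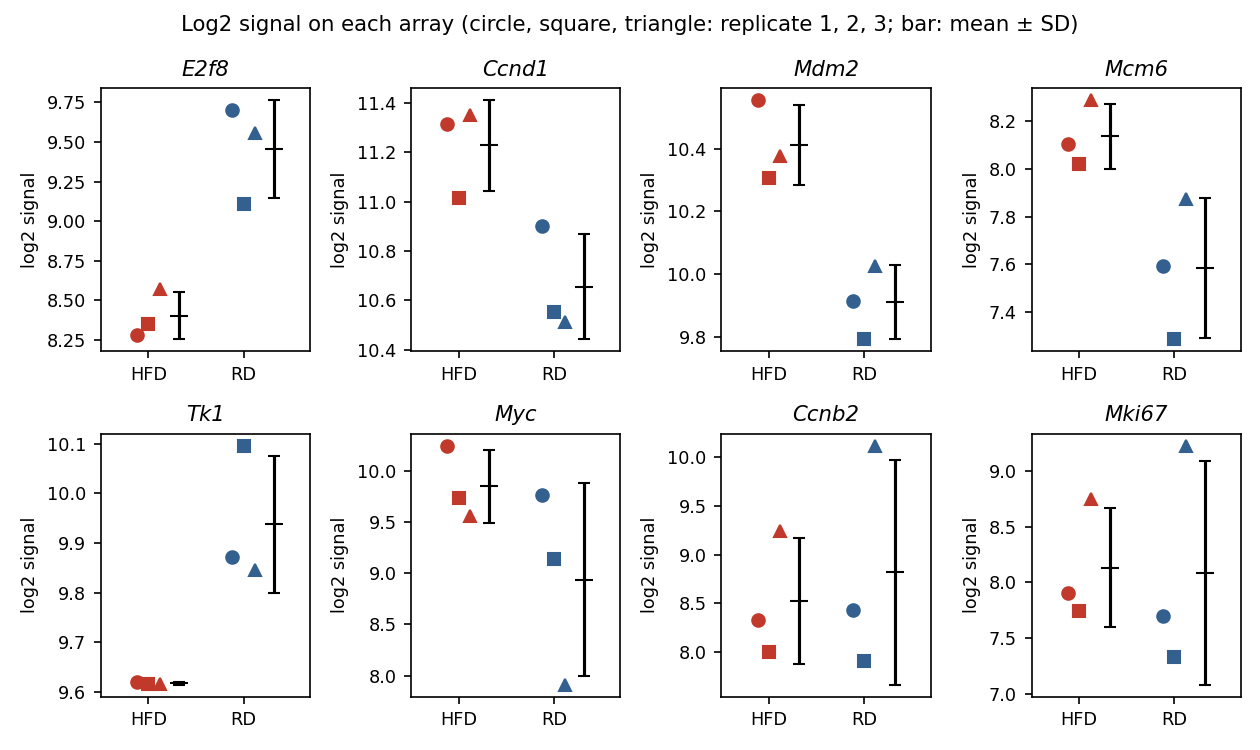
Log2 signal of 8 genes on each array, HFD left of RD, with the mean and SD of 3 arrays beside each group. HFD and RD values are apart for E2f8, Ccnd1, Mdm2, Mcm6 and Tk1, while Ccnb2 and Mki67 are highest in RD replicate 3 and Myc is lowest there.

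S phase genes mostly had positive differences, although none passed with the deposited values and all 6 arrays. Differences were positive for 11 of 13 genes, with a median of 0.29 (all genes -0.0029), and 7 of the 13 had an unadjusted p under 0.05, as did 19.7% of all genes. The median was 0.16 without RD replicate 2 and 0.41 without RD replicate 3, the lowest and highest with 1 array left out. The Mcm genes encode the 6 subunits of the helicase that opens replication origins, and all 6 had positive differences, with a median of 0.50 (0.33 without RD replicate 2 and 0.63 without RD replicate 3). HFD values lay above all RD values for 4 of the 6, namely Mcm2, Mcm4, Mcm6 and Mcm7, against 14% of all genes.

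Mcm6 (probe set 10357436) had log2 signals of 8.10, 8.02 and 8.29 in HFD livers, against 7.59, 7.28 and 7.87 in RD livers. The difference was 0.55 ± 0.14 (SE; adjusted p = 0.067), or 1.47-fold. Mcm2 (probe set 10546163) had 8.36, 8.14 and 8.54 in HFD livers, against 7.75, 7.71 and 8.06 in RD livers. Its difference was 0.51 ± 0.13 (adjusted p = 0.057), just short of the threshold. Mcm4 (probe set 10437945) had 8.002, 7.70 and 7.82 in HFD livers, against 7.32, 7.09 and 7.57 in RD livers, a difference of 0.51 ± 0.13 (adjusted p = 0.060). In these 3 genes RD replicate 3 was the highest RD array, closest to the HFD values.

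Mcm5 differed by 0.49 ± 0.21 (SE), Mcm3 by 0.37 ± 0.16 and Mcm7 by 0.29 ± 0.10 (adjusted p of 0.138 to 0.240). The diets overlapped for Mcm3 and Mcm5. Without RD replicate 3, Mcm6 (0.70 ± 0.12, adjusted p = 0.030), Mcm4 (0.64 ± 0.11, adjusted p = 0.034) and Mcm2 (0.62 ± 0.12, adjusted p = 0.040) passed as higher in HFD, when 1.77% of all genes were called higher. Mcm2 also passed without HFD replicate 2 (adjusted p = 0.046), when 1.86% of all genes were called higher. With each array centred on its median Mcm2, Mcm4 and Mcm6 passed (adjusted p = 0.039, 0.041 and 0.042), so these genes lay close to the threshold.

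Tk1, the thymidine kinase that salvages thymidine for DNA synthesis, went the other way. Its log2 signal (probe set 10582809) was 9.62 in each HFD liver, against 9.87, 10.10 and 9.85 in RD livers. The difference was -0.32 ± 0.08 (SE; adjusted p = 0.061), with no overlap, and a dimmer probe set of Tk1 differed by -0.38. After quantile normalization Tk1 passed as lower in HFD (adjusted p = 0.037). The other genes of nucleotide supply, the ribonucleotide reductase subunits Rrm1 (0.18 ± 0.19) and Rrm2 (-0.11 ± 0.18) and the thymidylate synthase Tyms (0.01 ± 0.10), showed differences no larger than their errors. Pcna, the sliding clamp of DNA polymerases, differed by 0.17 ± 0.09, and its dimmer probe set by 0.16. The ligase Lig1 differed by 0.23 ± 0.11 and the origin licensing factor Cdc6 by 0.34 ± 0.20.

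The G2/M group did not differ between the diets beyond its spread, and that spread was the main feature of the group. None of 15 genes passed in limma, none had an unadjusted p under 0.05 and none had diets that did not overlap. The median difference was 0.00 (-0.0046), from -0.33 for Kif20a to 0.22 for Bub1. The moderated SE had a median of 0.32, against 0.08 over all genes. Intervals were therefore wide, for example -1.51 to 0.92 for Ccnb2.

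RD replicate 3 carried the highest value of all 6 arrays in 15 of 15 G2/M genes, against 19.4% of all genes. Ccnb2, the mitotic cyclin B2, had log2 signals of 8.32, 8.002 and 9.24 in HFD livers, against 8.43, 7.91 and 10.12 in RD livers. Kif20a, a kinesin of cytokinesis, had 6.94, 6.91 and 7.59 in HFD livers, against 6.97, 6.74 and 8.72 in RD livers. Ccna2, cyclin A2, had 8.24, 7.98 and 8.93 in HFD livers, against 8.17, 7.68 and 9.77 in RD livers. Replicate 3 was thus the highest array in each diet for these genes, and replicate 2 the lowest.

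The proliferation antigen gene Mki67 had 7.90, 7.74 and 8.74 in HFD livers, against 7.70, 7.33 and 9.23 in RD livers. Top2a, the topoisomerase that untangles chromosomes, had 7.37, 7.04 and 7.76 in HFD livers, against 6.80, 6.62 and 8.10 in RD livers. Cdk1, the kinase that starts mitosis, had 8.78, 8.48 and 9.18 in HFD livers, against 8.46, 8.25 and 9.53 in RD livers. The same order held within each diet for all 15 genes, with replicate 3 highest and replicate 2 lowest in the 3 HFD livers and in the 3 RD livers.

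The gap between RD replicate 3 and the higher of the other RD arrays was 0.30 to 1.74 log2 units over the 15 genes, with a median of 1.07. It was at least 0.5 in 13 of 15, all except Bub1b and Birc5, against 0.642% of all genes (128 of 19938). This limit was chosen after the values were seen. The gap of Kif20a was the largest of all genes tested, and those of Ccnb2, Ccna2, Mki67 and Bub1 were among the 10 largest. The gap between HFD replicate 3 and the higher of the other HFD arrays was smaller, 0.21 to 0.92 with a median of 0.43.

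The remaining G2/M genes followed the same order. Bub1, a spindle checkpoint kinase, had 6.57, 6.19 and 6.82 in HFD livers, against 5.86, 5.82 and 7.25 in RD livers, a difference of 0.22 ± 0.35 (SE; adjusted p = 0.797). Cdc20, which activates the anaphase-promoting complex, had 7.67, 7.41 and 8.10 in HFD livers, against 7.72, 7.62 and 8.60 in RD livers, a difference of -0.25 ± 0.26 (adjusted p = 0.666). Birc5, the survivin gene of the chromosomal passenger complex, had 7.46, 7.40 and 7.82 in HFD livers, against 7.61, 7.59 and 7.99 in RD livers, a difference of -0.17 ± 0.14 (adjusted p = 0.565). The kinases Aurka, Aurkb, Plk1 and Bub1b, the motor Kif11 and the transcription factor Foxm1, which activates many mitotic genes, had differences between -0.10 and 0.15.

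**Figure D4:**
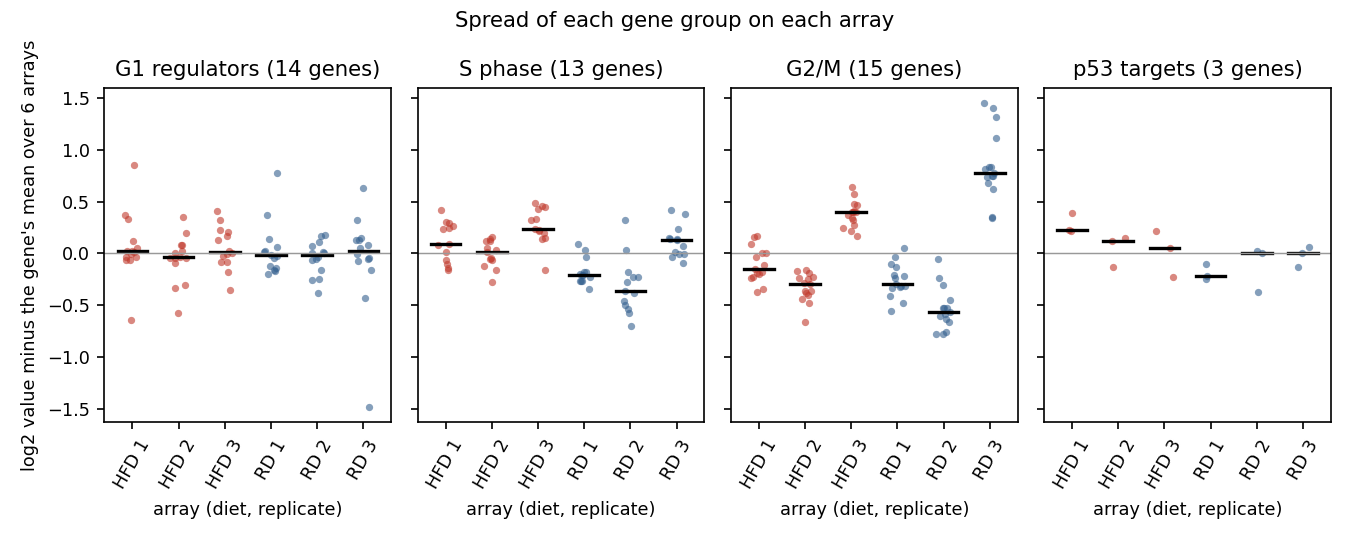
Log2 value of each gene minus its own mean over 6 arrays, by group and array, HFD left of RD, with black bars for the median. G2/M genes lie 0.77 above their means in RD replicate 3 and 0.40 above in HFD replicate 3, against 0.57 below in RD replicate 2.

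Over the group, the median deviation from each gene's own mean was -0.15, -0.30 and 0.40 on HFD replicates 1 to 3 and -0.29, -0.57 and 0.77 on RD replicates 1 to 3. For S phase genes it was 0.09, 0.02 and 0.23 on the HFD arrays and -0.21, -0.37 and 0.13 on the RD arrays, so RD replicate 3 was again the highest RD array. For G1 regulators the medians lay between -0.04 and 0.02 on all arrays, and for all genes between -0.01 and 0.01 (-0.0102 to 0.0126).

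Without RD replicate 3, the difference was positive for 14 of 15 G2/M genes, with a median of 0.36, and still none passed (smallest adjusted p = 0.077, for Bub1 at 0.69 ± 0.17). Without RD replicate 2 it was negative for 15 of 15, with a median of -0.27. Without HFD replicate 3 it was negative for 13 of 15, with a median of -0.26. With replicates 1 and 2 of each diet alone, an alternative chosen after seeing the data, 12 of 15 were positive, with a median of 0.18, and none passed. The direction of the G2/M group between the diets thus depended on single arrays.

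**Figure D5:**
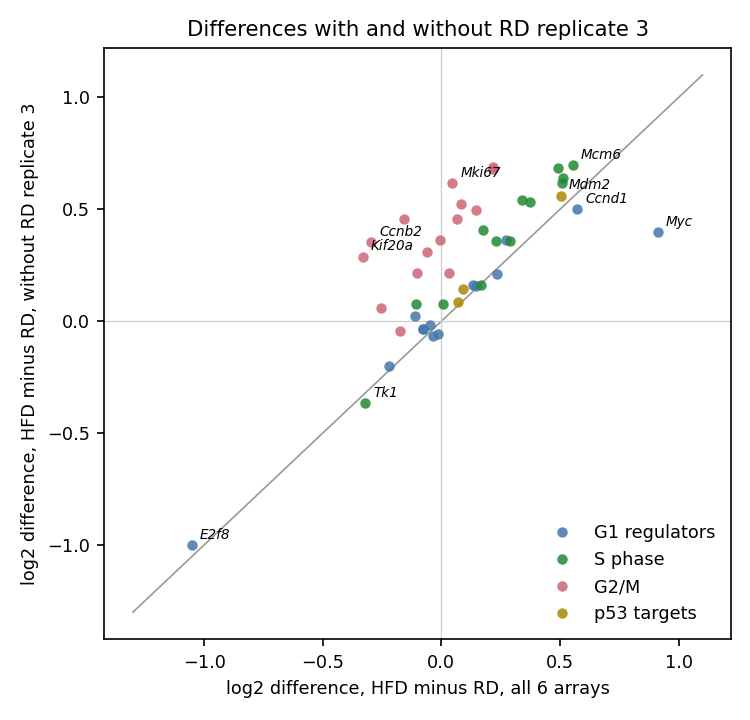
Log2 difference, HFD minus RD, with all 6 arrays (horizontal) and without RD replicate 3 (vertical), 1 point a gene, with the line of equal values. Most G2/M and S phase genes lie above the line, while Myc lies below it at 0.91 and 0.40.

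Among the p53 targets, Mdm2 rose. Its log2 signal (probe set 10372668) was 10.55, 10.31 and 10.38 in HFD livers, against 9.91, 9.79 and 10.03 in RD livers, with no overlap. The difference was 0.50 ± 0.09 (SE; adjusted p = 0.020), or 1.42-fold. The call was lost without HFD replicate 1 (adjusted p = 0.057), HFD replicate 3 (0.052), RD replicate 1 (0.076) or RD replicate 2 (0.076), with differences of 0.43 to 0.52.

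The other targets did not pass. Ccng1, the cyclin G1 gene, had 11.89, 11.54 and 11.72 in HFD livers, against 11.45, 11.69 and 11.73 in RD livers, and the values overlapped. The difference was 0.09 ± 0.11 (SE; adjusted p = 0.723), with a 95% interval from -0.16 to 0.34. Btg2, an antiproliferative gene, had 8.98, 8.89 and 8.55 in HFD livers, against 8.67, 8.77 and 8.77 in RD livers. Its difference was 0.07 ± 0.11 (adjusted p = 0.798), with an interval from -0.19 to 0.32. RD replicate 3 was the highest RD array in 2 of 3 p53 targets, against 40.1% of all genes. HFD replicate 3 was the highest HFD array in 0 of 3, against 38.4% of all genes. The gap of RD replicate 3 to the other RD arrays was at most 0.11 in these genes.

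Further genes of the p53 pathway gave a similar picture. Of 32 measured 3 rose and 0 fell (9.38%, against 5.35% of all genes), with a median of 0.05. The translesion polymerase gene Polk rose by 0.74 ± 0.08 (SE; adjusted p = 0.0024), the antiproliferative gene Btg1 by 0.52 ± 0.07 (adjusted p = 0.0058) and the death receptor gene Tnfrsf10b by 0.39 ± 0.09 (adjusted p = 0.041). Polk and Btg1 passed whichever array was left out. Tnfrsf10b passed without RD replicate 3 and not without any other single array (adjusted p up to 0.142).

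Of 28 other G1 regulators 3 rose and 3 fell (21.4%, against 5.35% of all genes), with a median of 0.00 (-0.0017). E2f6, a repressive E2F factor, rose by 0.48 ± 0.07 (SE; adjusted p = 0.0061) and passed whichever array was left out. The Cdk-binding subunit Cks1b rose by 0.39 ± 0.07 and the phosphatase Cdc25a, which activates Cdk2, by 0.41 ± 0.09. The Myc relatives Mycl and Mycn fell by 0.79 ± 0.13 and 0.57 ± 0.09 on the log2 scale, and the E2F partner Tfdp2 fell by 0.32 ± 0.07. Without RD replicate 2 the calls of Mycl (adjusted p = 0.052) and Mycn (0.051) were lost. Cks1b was lost without HFD replicate 1 or RD replicate 1 or 2 (adjusted p up to 0.081), Cdc25a without any single array but HFD replicate 2 (up to 0.143) and Tfdp2 without any single array (up to 0.131). Counts in this list were 1 to 3 higher and 0 to 2 lower when an array was left out. Over all genes 0.988% to 1.86% were then higher and 0.893% to 1.37% lower. The list had 1 higher without HFD replicate 1 or RD replicate 1 or 2, and 0 lower without RD replicate 2.

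Of 39 other replication genes 3 rose and 0 fell (7.69%, against 5.35% of all genes). The median was 0.11, and 28 lay above 0. The chromatin assembly subunit Chaf1b rose by 0.69 ± 0.14 (SE; adjusted p = 0.031), the polymerase alpha gene Pola1 by 0.40 ± 0.09 (adjusted p = 0.042) and the primase subunit Prim2 by 0.41 ± 0.10 (adjusted p = 0.046). Chaf1b was lost without HFD replicate 1 or 3 or RD replicate 1 or 2 (adjusted p up to 0.115), Prim2 without any single array but RD replicate 3 (up to 0.152) and Pola1 without any single array (up to 0.111). The count of higher genes was 4 when RD replicate 3 was left out (1.77% of all genes), 1 for HFD replicate 2 (1.86% of all genes) and 0 for the other arrays.

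Of 40 other mitosis genes none passed in limma, with 1 at an unadjusted p under 0.05. Cks2, a Cdk-binding subunit, differed by -0.21 ± 0.07 (SE; adjusted p = 0.132) and the kinesin Kif23 by 0.39 ± 0.18 (adjusted p = 0.286). The median was -0.05, and 0.25 without RD replicate 3. RD replicate 3 was the highest of 6 arrays in 34 of the 40, against 19.4% of all genes. Its gap to the other RD arrays was at least 0.5 in 26, against 0.642% of all genes.

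Markers of other liver cells were measured beside these genes. Over all genes 3.11% were called higher and 2.24% lower. Of 11 markers of Kupffer cells, the resident macrophages, 5 were higher in HFD (45.5%). Their summed signal was 14.08 to 14.58 on the log2 scale in HFD livers, against 13.81 to 13.89 in RD livers. All 5 measured cholangiocyte markers were higher, with 10.19 to 10.38 in HFD livers, against 9.75 to 9.90 in RD livers. With single arrays left out, Kupffer cell counts were 5, 8 and 2 for HFD replicates 1 to 3 and 1, 1 and 2 for RD replicates 1 to 3. Cholangiocyte counts were 0 or 1 without any single array. Over all genes 0.988% to 1.86% were then called higher. Kupffer cell markers were highest in HFD replicate 1 for 10 of 11 genes (20.0% of all genes). Of the 6 Mcm genes 5 were highest in HFD replicate 3 (17.5% of all genes). Median deviations on HFD replicates 1 to 3 were 0.52, -0.01 and 0.26 for Kupffer cell markers and 0.28, 0.04 and 0.38 for Mcm genes. Of 9 monocyte and neutrophil markers 2 were higher (22.2%), and 1 without any single RD array. Differences were positive for 6 and negative for 3, with a median of 0.15. Their summed signal was 11.31 to 11.71 in HFD livers, against 10.89 to 10.96 in RD livers. Such a sum weights bright markers most, and only 1 of the 9 was brighter than the median gene. None of the markers of lymphocytes (11), endothelial cells (9) or stellate cells (8) passed in limma, with 0, 2 and 1 at an unadjusted p under 0.05. Of 4 measured markers of erythroid precursors 1 was lower (25%), and 0 without any single array. Their summed signal was 11.31 to 11.46 in HFD livers, against 11.39 to 11.68 in RD livers. In RD replicate 3 the summed signal was 13.89 for Kupffer cells, 10.24 for lymphocytes and 11.68 for erythroid precursors, against 13.81 and 13.86, 10.16 and 10.12, and 11.58 and 11.39 in RD replicates 1 and 2. Their part in the values of the cell cycle genes was not tested.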

How the data were processed

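The authors deposited 1 log2 value per probe set and array, with range 2.28 to 14.86. The summarisation and normalization behind these log2 values were not stated in the sources used, and base 2 was inferred from the range. RNA was labelled with a GeneChip kit, per the labels' protocols. Of 35512 rows 21789 had 1 gene symbol, and the brightest probe set per gene left 19938 genes. No detection calls or scan dates were used here, so batches were not tested, and no filter on dim genes was applied. The threshold was an adjusted p of 0.05.

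All genes were fitted with diet alone in limma 3.58.1 (R 4.3.3; lmFit and eBayes), with two-sided tests; p-values were adjusted over all genes (Benjamini-Hochberg). In simulated data 53% of log2 changes of 0.5 and 91% of changes of 1 were recovered, with 6 false calls (19938 genes, HFD against RD). Noise was drawn separately for each gene, and the changed genes were drawn from all genes. The median SE was 0.08 over all genes, 0.14 over the 45 genes and 0.32 for G2/M genes. These shares therefore do not give the recovery for the 45 genes. A total of 0 per-sample columns were left unused. Genes given in full were those that passed, filled up to 4 per group by smallest p, and in other lists up to 6 that passed or 2 by smallest p. Members and lists were chosen with earlier results of these data known. Whether replicate numbers pair the samples is not known. Deviations of same-numbered arrays correlated at -0.11, 0.00 (7.2e-05) and 0.12. Those of differently numbered arrays lay between -0.12 and 0.13, a like range, so this check could not decide. Alternatives were 2 scalings, brighter genes, mean of probe sets, another variance prior, a replicate block, an unmoderated model, each array left out, and replicates 1 and 2 alone. A further limma fit took every row, with p-values adjusted over all rows.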

Additional observations from a re-analysis of the deposited data

Results flagged for a closer look

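A pair of probe sets outside the comparisons, because their annotation lists more than 1 gene, had higher signals in HFD livers than in RD livers. Probe set 10394731 had log2 signals of 6.54, 6.25 and 6.17 in HFD livers, against 5.80, 5.92 and 5.92 in RD livers, a difference of 0.44 ± 0.11 (SE; limma over every row, adjusted p = 0.133). Probe set 10408329 had 6.46, 6.35 and 6.24 in HFD livers, against 5.99, 5.85 and 5.98 in RD livers, a difference of 0.41 ± 0.08 (adjusted p = 0.088). Neither passed the threshold after adjustment, and no gene is assigned to them.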

How the results depend on the processing

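The counts of changed genes were small and moved with the settings. Of the 45 genes 2 were higher with the deposited values, 5 with median centring, 5 of the 35 that were among the brighter genes, 5 with a trend and robust prior, 5 with the replicate block, and 0 with an unmoderated linear model or with replicates 1 and 2 of each diet (0 to 4 without 1 array). S phase genes higher were 3, 1, 3, 3 and 3 with median centring, quantile normalization, brighter genes only, the trend and robust prior and the replicate block (0 to 3 without 1 array). G1 regulators higher and p53 targets higher were each 0 with the unmoderated model and with replicates 1 and 2 (0 to 1 without 1 array). Genes lower, 1 with the deposited values, were 2 with quantile normalization, brighter genes only and the trend and robust prior, where 1 S phase gene (Tk1) was lower, and 0 with the unmoderated model and with replicates 1 and 2, as were G1 regulators lower. The median difference of G1 regulators was -0.030 to 0.0092 without 1 array, and that of p53 targets 0.21 with replicates 1 and 2. Differences that changed sign belonged to genes that did not pass. Among the genes given in full by the rule above, they ranged without 1 array from -0.44 to 0.057 for Cdc20 and -0.70 to 0.29 for Kif20a (0.066 with replicates 1 and 2). For Bub1 the range was -0.027 to 0.69 and for Btg2 -0.020 to 0.20. Further genes of the set changed sign too, for example Ccna2 (-0.59 to 0.46 over the alternatives) and Mki67 (-0.33 to 0.62). Over all genes 1067 were called, 563 with the replicate block, 99 with the unmoderated model, 338 with replicates 1 and 2 and 405 to 626 without 1 array. Genes called higher were 3.64% of all with median centring, 8.65% of the brighter genes, 4.26% with the trend and robust prior and 1.59% with the replicate block, and genes called lower were 2.54% with quantile normalization, 6.21% of the brighter genes and 3.08% with the trend and robust prior. With the replicate block Mcm2, Mcm5 and Mcm6 passed (adjusted p = 0.024, 0.037 and 0.029), while Cks1b (0.063), Cdc25a (0.099), Tfdp2 (0.082), Pola1 (0.070), Prim2 (0.052) and Tnfrsf10b (0.051) did not, and 1 cholangiocyte and 3 Kupffer cell markers were higher. Fewer samples enter when arrays are left out. In the unmoderated model 1 gene of the other pathway lists was called, a G1 regulator that was higher. For the other settings the cause was not tested. Signal over background was not used here, so dim genes may hold values near background.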

Other observations

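The 10 largest gaps between RD replicate 3 and the other RD arrays, over all genes, held 5 genes from outside the set. They were the cytokinesis regulator Ect2 (1.71 log2 units), the spindle protein gene Knstrn (1.45), Ckap2l (1.42), the ubiquitin-conjugating enzyme Ube2c (1.39) and the spindle midzone gene Prc1 (1.37), named after their values were seen. Of the 128 genes with a gap of at least 0.5, 43 were among the genes examined or the lists of other G1, replication, mitosis and p53 genes, and 85 were not.

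The annotation of probe set 10443463 lists 2 genes, Cdkn1a among them, so the probe set is not assigned to either. It had log2 signals of 10.13, 9.23 and 10.74 in HFD livers, against 8.77, 9.58 and 9.82 in RD livers. The values overlapped, and the difference was 0.64 ± 0.42 (SE; limma over every row, adjusted p = 0.532).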
